A study of Mus musculus with 12 samples.

Results

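Phox2a, Hand2, Insm1, Ret, Stmn2, Elavl4, Dcx and Calcb are genes of autonomic neurons and of neuroendocrine cells, and their transcript levels were compared here in lungs of mouse embryos. The genes were taken by name, with earlier results of these data known, and are 8 of the 31078 genes in the count table. All 8 had a row in the table, and all 8 were tested. RNA sequencing was done on lungs dissected at embryonic day 12.5 on a C57BL/6 background. The 4 groups were Intu-knockout left lungs, Intu-knockout right lungs, wild-type left lungs and wild-type right lungs, with 3 libraries in each. All embryos came from matings in which both parents carried an Intu knockout allele, and the labels name no Cre or other driver that would limit the loss to 1 cell type. What the allele removes from Intu is not stated. Nor do they state that the 3 libraries of each group are from different embryos, so some of the variation that the p-values rest on may be technical.

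Neurons inside the lung descend from neural crest cells that enter the foregut with the vagus nerve and settle along the growing airways as small ganglia. Phox2a and Hand2 encode transcription factors that switch on the autonomic neuron programme in such cells, and RET is the receptor through which they sense glial cell line-derived factors. Pulmonary neuroendocrine cells have another origin, the airway epithelium, and are known to depend on Insm1 and to release the peptide CGRP. Intu encodes a protein needed to build the primary cilium, the organelle through which cells receive Hedgehog signals. Several of the 8 genes are also used elsewhere, Hand2 in mesenchyme for example. In whole lungs, fewer cells of a type and less RNA per cell cannot be told apart.

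Promoter windows from RefSeq, from 250 bases before to 50 bases after an annotated start, were found for 4 of the 8 genes. Insm1, Ret, Stmn2 and Calcb had no window. Windows of Phox2a and Hand2, which fell in knockout lungs, and of Elavl4 and Dcx, which did not pass the test, are shown. They were searched on both strands for the GLI motif GACCACCCA, the E-boxes CAGCTG and CATCTG, which are bound by basic helix-loop-helix factors such as HAND2, and 2 parts of the RE1 element, TTCAGCACC and GGACAGCGC. Capitals mark matches, coordinates are GRCm38.p6, and each line reads 5′ to 3′ on the strand of the gene.
Phox2a, chr7:101818063-101818362, plus strand: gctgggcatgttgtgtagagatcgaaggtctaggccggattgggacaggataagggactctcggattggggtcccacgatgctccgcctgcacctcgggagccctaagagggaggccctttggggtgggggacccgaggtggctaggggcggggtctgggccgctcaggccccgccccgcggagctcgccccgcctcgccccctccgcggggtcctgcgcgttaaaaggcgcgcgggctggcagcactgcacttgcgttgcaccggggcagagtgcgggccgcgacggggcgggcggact
Hand2, chr8:57320733-57321032, plus strand: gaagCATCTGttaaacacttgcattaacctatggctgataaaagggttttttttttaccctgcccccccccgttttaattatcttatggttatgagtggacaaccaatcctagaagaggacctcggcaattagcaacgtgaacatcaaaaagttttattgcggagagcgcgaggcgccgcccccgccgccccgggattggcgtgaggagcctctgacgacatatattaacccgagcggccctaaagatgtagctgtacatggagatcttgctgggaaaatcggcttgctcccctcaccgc
Elavl4, chr4:110287462-110287761, minus strand: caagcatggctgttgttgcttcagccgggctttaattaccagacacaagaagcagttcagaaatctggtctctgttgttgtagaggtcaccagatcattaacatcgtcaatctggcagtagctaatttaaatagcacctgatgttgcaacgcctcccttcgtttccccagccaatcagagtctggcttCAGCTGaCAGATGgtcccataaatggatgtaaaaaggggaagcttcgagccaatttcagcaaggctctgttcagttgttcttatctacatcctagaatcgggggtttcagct
Dcx, chrX:143933075-143933374, minus strand: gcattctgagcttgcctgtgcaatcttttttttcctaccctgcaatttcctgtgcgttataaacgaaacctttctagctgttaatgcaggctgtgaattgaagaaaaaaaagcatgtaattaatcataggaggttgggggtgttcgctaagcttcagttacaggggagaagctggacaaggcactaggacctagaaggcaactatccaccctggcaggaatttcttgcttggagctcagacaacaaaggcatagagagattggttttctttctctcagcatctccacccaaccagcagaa

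The Phox2a window held none of the motifs, and 71.3% of its bases were G or C, against a median of 52.7% over the 32851 windows of the table. The Hand2 window held CATCTG, 246 bases before the start. The Elavl4 window shown held CAGCTG at 62 bases before the start and CATCTG, on the other strand, at 55 bases before it; a separate Elavl4 window held CATCTG at 101 bases before its start. Neither Dcx window held a motif. Over all windows, CAGCTG was present in 16.3% and CATCTG in 17.2%, GACCACCCA in 0.253%, TTCAGCACC in 0.371% and GGACAGCGC in 0.405%. No match of the GLI or RE1 letters was found in any window of the 4 genes, which says only that those letters are not in these windows.

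The libraries held 10290103 to 10753386 counts each on the chromosomes in the table, which are 1 to 7, 10, X and part of 8. Levels are in counts-per-million (CPM) of that total, and 9519 genes had enough counts to be tested over 12 libraries. Intu itself stood at 26.2 to 31.4 CPM in libraries labelled knockout and at 28.2 to 34.0 CPM in wild-type libraries, so its total count did not check the labels (log2 difference -0.16, edgeR adjusted p = 0.398). Gli1, a Hedgehog target, separated them, with 151 to 185 CPM in knockout and 345 to 394 CPM in wild-type libraries. Epithelial markers such as Foxa2 and Shh were present in every group. The knockout libraries numbered 1 had 118 (left) and 107 (right) CPM of Xist, against 388 to 985 CPM in the other knockout libraries and 1271 to 2269 CPM in wild-type libraries. The left knockout library numbered 1 also held 40.3 CPM of the liver gene Alb, against at most 2.70 CPM in any other library. Neither value was tested as a cause of the results. Without the knockout pair numbered 1, the same 5 genes were called lower with sides summed. Xist in the remaining knockout libraries was still below every wild-type library, so that fit does not separate Xist from genotype.

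Loss of Intu was accompanied by lower levels of 5 of the 8 genes. With the left and right library of each number added together, giving 3 knockout and 3 wild-type sums, Phox2a, Hand2, Insm1, Stmn2 and Calcb fell, and their folds lay between 2.76 (Stmn2) and 5.83 (Calcb). Ret and Elavl4 were lower on average but did not pass the test, and Dcx differed little. A gene is called where the adjusted p of edgeR's quasi-likelihood test is under 0.05. In that comparison 1.04% of all 10203 tested genes were called lower and 0.343% higher. None of the 8 was called higher by edgeR, DESeq2 or limma-voom, and none was higher at an unadjusted p under 0.05. The median log2 difference was -1.61 over the 8 genes and 0.00 over all tested genes, and 7 of the 8 were negative, against 48.7% of all genes. Since the 8 were chosen with earlier results of these data known, these values describe the 8 and are no test of them. Side by side, 3 of the 8 were called lower in left lungs (Insm1, Stmn2 and Calcb) and 5 in right lungs, where 0.872% and 1.18% of all genes were called lower and 0.305% and 0.336% higher. Phox2a, Insm1 and Calcb reached the filter on low counts through their wild-type groups alone. All 8 genes also passed a filter on the mean of all libraries, which gave the same 3, 5 and 5 calls.

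**Figure D1:**
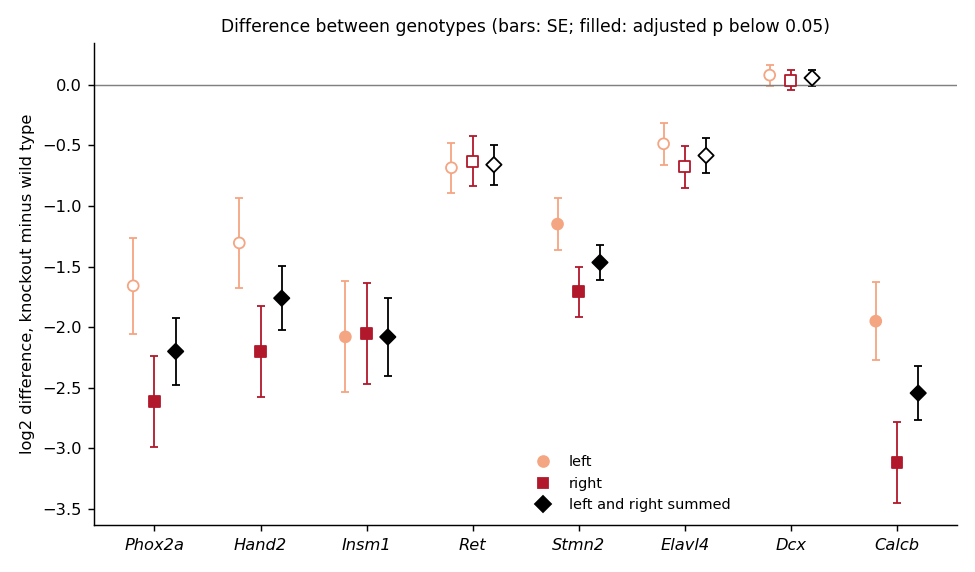
Log2 difference, knockout minus wild type, of each of the 8 genes in left lungs (circles), right lungs (squares) and with left and right counts summed (diamonds), with bars for the standard error and filled symbols for an adjusted p below 0.05. Calcb sits at -1.95, -3.12 and -2.54, the lowest values in right lungs and with sides summed, Insm1 is lowest in left lungs at -2.08, and Dcx sits at 0.04 to 0.08.

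Of the transcription factors, Phox2a (chromosome 7, 101818313 to 101822726, GRCm38) encodes a homeodomain protein of noradrenergic and other visceral neurons. It had 0.782, 0.671 and 0.385 CPM in knockout left lungs and 0.781, 0.480 and 0.386 CPM in knockout right lungs, which is 4 to 8 counts per library. In wild-type lungs there were 2.69, 1.13 and 2.06 CPM on the left and 3.63, 3.83 and 2.77 CPM on the right, which is 12 to 41 counts. Every knockout library was below every wild-type library, although the wild-type left library numbered 2 came close. Over all tested genes, 2.65% were separated in that way in 6 against 6 libraries.

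Phox2a fell by 2.20 on the log2 scale with sides summed (SE 0.28, edgeR adjusted p = 0.00973), a level 4.59-fold lower in knockout lungs. In right lungs alone it fell by 2.61 (SE 0.38, adjusted p = 0.00246). The left difference of -1.66 did not pass (SE 0.39, adjusted p = 0.0644) but did without the wild-type left library numbered 2 (adjusted p = 0.0275). The summed call was lost without the knockout pair numbered 3 (adjusted p = 0.0522) and without the wild-type pair numbered 2 (0.0507). Phox2a shares 95 exon bases with Inppl1 on the other strand, and whether counting used strand is not given in the sources used here. Inppl1 had 3617 to 4074 counts and a summed log2 difference of 0.03 (adjusted p = 0.820).

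Hand2 (chromosome 8, 57320983 to 57324633) encodes a basic helix-loop-helix factor of sympathetic and enteric neurons that is also used in mesenchyme and heart. Its levels were 2.64, 0.863 and 1.73 CPM in knockout left lungs and 1.76, 1.06 and 1.06 CPM in knockout right lungs. Wild-type left lungs had 4.42, 2.55 and 5.98 CPM and wild-type right lungs 6.31, 6.72 and 4.88 CPM. The right groups stood well apart, while on the left the knockout library numbered 1 lay just above the wild-type library numbered 2.

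With sides summed, Hand2 fell by 1.76 on the log2 scale (SE 0.27, edgeR adjusted p = 0.0180), a level 3.39-fold lower in knockout lungs. In right lungs it fell by 2.20 (SE 0.38, adjusted p = 0.00838), and the left difference was -1.30 (SE 0.37, adjusted p = 0.129). The summed call was lost without the knockout pair numbered 3 (adjusted p = 0.0867) or the wild-type pairs numbered 1 (0.0704) or 2 (0.0669), and the right call without the knockout right library numbered 3 (0.0577). Hand2 shares 461 exon bases with its antisense gene Hand2os1, so reads of the pair cannot be told apart if counting ignored strand. Hand2os1 had 1 to 39 counts per library. It was called lower in right lungs (log2 difference -2.59, adjusted p = 0.0286) and not with sides summed (-2.04, adjusted p = 0.106).

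Insm1 (chromosome 2, 146221921 to 146225020) is a gene with a single exon that encodes a zinc finger protein of developing neuroendocrine cells and neurons. It had the fewest counts of the 8 genes, 2 to 8 per knockout library and 13 to 27 per wild-type library. Knockout left lungs had 0.587, 0.192 and 0.385 CPM and knockout right lungs 0.781, 0.576 and 0.193 CPM. Wild-type left lungs had 2.02, 1.23 and 1.78 CPM and wild-type right lungs 2.58, 2.33 and 1.63 CPM. No knockout library reached the lowest wild-type library on either side.

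Insm1 fell by nearly the same amount on both sides. Its log2 difference was -2.08 in left lungs (SE 0.46, edgeR adjusted p = 0.0435), -2.05 in right lungs (SE 0.42, adjusted p = 0.0233) and -2.08 with sides summed (SE 0.32, adjusted p = 0.0195), a 4.23-fold lower level. These calls were close to the threshold: the left one was lost whichever library was left out (adjusted p = 0.0525 to 0.160). The right one was lost without the knockout libraries numbered 2 (0.0707) or 3 (0.108) or the wild-type libraries numbered 1 (0.0824) or 2 (0.0913), and the summed one without the knockout pair 3 (0.0864) or the wild-type pairs 1 (0.0740) or 2 (0.0780).

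Ret (chromosome 6, 118151745 to 118197718) encodes the receptor tyrosine kinase through which neural crest cells answer to GDNF and its relatives. It had 11.2, 13.4 and 10.6 CPM in knockout left lungs and 12.7, 11.1 and 9.84 CPM in knockout right lungs. In wild-type lungs it had 20.2, 12.1 and 24.4 CPM on the left and 17.0, 15.9 and 19.2 CPM on the right. The groups did not overlap in right lungs. On the left they did, through the wild-type library numbered 2, whose level was below that of the knockout library numbered 2.

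The log2 difference of Ret was -0.68 in left lungs (SE 0.21, edgeR adjusted p = 0.163), -0.63 in right lungs (SE 0.21, adjusted p = 0.192) and -0.66 with sides summed (SE 0.16, adjusted p = 0.110). None of these passed the test. Without the wild-type left library numbered 2 the left difference was -0.92 and passed (adjusted p = 0.0190), and DESeq2 called the summed difference (-0.66, adjusted p = 0.00693).

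Calcb (chromosome 7, 114718643 to 114723365) encodes the beta form of CGRP, a peptide of sensory and enteric neurons and, with its paralog Calca, of neuroendocrine cells. It had 0.587, 0.671 and 0.674 CPM in knockout left lungs and 0.586, 0.480 and 0.193 CPM in knockout right lungs, which is 2 to 7 counts per library. Wild-type left lungs had 2.31, 2.27 and 2.99 CPM and wild-type right lungs 4.49, 3.73 and 2.97 CPM, which is 24 to 47 counts. The gap between the genotypes was wide on both sides: the highest knockout library held 0.674 CPM and the lowest wild-type library 2.27 CPM.

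Calcb had the largest fold of the 8 genes in right lungs and with sides summed, while in left lungs that of Insm1 was larger (-2.08 on the log2 scale). Calcb fell by 1.95 on the log2 scale in left lungs (SE 0.32, edgeR adjusted p = 0.00989), by 3.12 in right lungs (SE 0.33, adjusted p = 0.000262) and by 2.54 with sides summed (SE 0.22, adjusted p = 0.00157), a 5.83-fold lower level in knockout lungs. All 3 calls held whichever single library or pair was left out. Its paralog Calca, with 1 to 14 counts per library, averaged 0.290 ± 0.168 CPM in knockout left, 0.580 ± 0.169 in knockout right, 1.10 ± 0.291 in wild-type left lungs and 1.01 ± 0.300 in wild-type right lungs (SD, n = 3 each). Its summed log2 difference of -1.27 did not pass (SE 0.33, adjusted p = 0.122). How the counting treated reads that fit both genes is not given, so the split between the paralogs is uncertain.

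**Figure D2:**
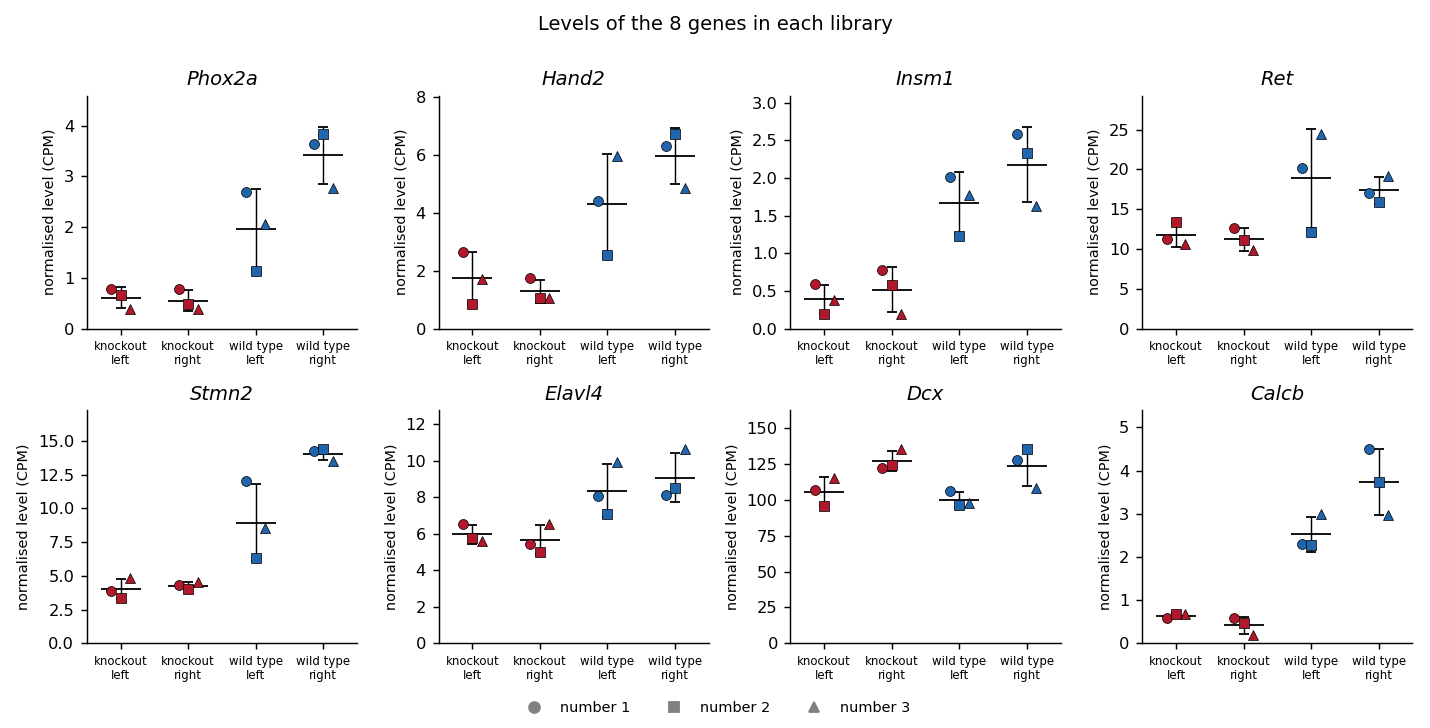
Level of each of the 8 genes in CPM (vertical axes start at 0) in knockout left, knockout right, wild-type left and wild-type right lungs, with 1 symbol per library by its number, the mean as a wide line and the SD as bars (n = 3). The Phox2a, Insm1, Stmn2, Elavl4 and Calcb libraries do not overlap between genotypes, while Hand2 and Ret overlap through left libraries and Dcx overlaps throughout. Over all tested genes, 2.65% had every knockout library below every wild-type one.

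Among the structural genes, Stmn2 (chromosome 3, 8509360 to 8561606) encodes stathmin 2, a microtubule regulator of growing axons. It had 3.91, 3.35 and 4.81 CPM in knockout left lungs and 4.30, 4.03 and 4.53 CPM in knockout right lungs. Wild-type left lungs had 12.01, 6.33 and 8.51 CPM and wild-type right lungs 14.2, 14.4 and 13.5 CPM. The knockout libraries were alike on both sides, whereas the wild-type left libraries were spread out and all below the wild-type right ones.

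Stmn2 fell by 1.15 on the log2 scale in left lungs (SE 0.21, edgeR adjusted p = 0.0161), by 1.71 in right lungs (SE 0.21, adjusted p = 0.000670) and by 1.47 with sides summed (SE 0.15, adjusted p = 0.00458), a 2.76-fold lower level in knockout lungs. The right and summed calls held whichever library or pair was left out. The left call was lost without the knockout left libraries numbered 1 (adjusted p = 0.0556) or 2 (0.0703) and without the wild-type left library numbered 1 (0.0694).

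Elavl4 (chromosome 4, 110203722 to 110351909) encodes HuD, an RNA-binding protein of neurons. It had 6.55, 5.75 and 5.58 CPM in knockout left and 5.47, 4.99 and 6.56 CPM in knockout right lungs. In wild-type lungs it had 8.07, 7.08 and 9.91 CPM on the left and 8.12, 8.49 and 10.6 CPM on the right. Every knockout library was below every wild-type library, as for Phox2a, but the gap was narrow. Its log2 difference was -0.49 in left lungs (SE 0.17, edgeR adjusted p = 0.284), -0.68 in right lungs (SE 0.17, adjusted p = 0.0799) and -0.58 with sides summed (SE 0.15, adjusted p = 0.112), and none passed the test. DESeq2 and limma-voom did not call the summed difference either. Other fits did call Elavl4. With no filter on low counts it passed in right lungs (edgeR adjusted p = 0.0286). Over both sides it passed in edgeR on 12 libraries without pairs (adjusted p = 0.0130). It also passed in limma-voom with the pair as a random effect (adjusted p = 0.0405). The related gene Elavl2 stood at -0.25 with sides summed (SE 0.11, adjusted p = 0.379).

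Dcx (X chromosome, 143855842 to 143933311) encodes doublecortin, a microtubule protein of migrating young neurons. It had 106, 95.3 and 115 CPM in knockout left lungs and 122, 124 and 135 CPM in knockout right lungs. Wild-type left lungs had 106, 96.4 and 97.4 CPM and wild-type right lungs 127, 135 and 108 CPM. The genotypes overlapped on both sides, and left libraries were below right libraries within each genotype. The log2 difference between genotypes was 0.08 in left lungs (SE 0.09, edgeR adjusted p = 0.849), 0.04 in right lungs (SE 0.09, adjusted p = 0.898) and 0.06 with sides summed (SE 0.07, adjusted p = 0.781).

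In all, 5 of the 8 genes (Phox2a, Insm1, Stmn2, Elavl4 and Calcb) had every knockout library below every wild-type one, against 2.65% of all tested genes. Of these, Phox2a, Insm1 and Calcb reached the filter on low counts through their wild-type groups alone. In left lungs the groups were apart for the same 5 genes, where 8.26% of all tested genes had every knockout library below every wild-type one. In right lungs they were apart for 7, all but Dcx, with 9.71% of all genes, and among the summed counts again for 7, with 10.4%.

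Levels can be compared between genes only per length, here as CPM per kilobase of the exon length in the table. Dcx stood far above the others at 10.03 ± 0.551 CPM per kilobase in knockout right and 9.76 ± 1.09 in wild-type right lungs (SD, n = 3 each, as below). In knockout right lungs Ret followed at 1.66 ± 0.212, then Elavl4 at 1.05 ± 0.149, Stmn2 at 0.765 ± 0.0446, Hand2 at 0.549 ± 0.172, Calcb at 0.332 ± 0.161, Phox2a at 0.270 ± 0.101 and Insm1 at 0.167 ± 0.0963. Neighbours from Stmn2 downwards overlapped in mean ± SD. In wild-type right lungs Calcb came next after Dcx at 2.95 ± 0.603, and Ret (2.57 ± 0.254), Hand2 (2.54 ± 0.410) and Stmn2 (2.50 ± 0.0843) lay within its spread. Elavl4 (1.69 ± 0.251) and Phox2a (1.68 ± 0.275) were level with each other, and Insm1 was lowest at 0.703 ± 0.160. On this scale Calcb was thus below Ret, Elavl4 and Stmn2 in knockout right lungs, and level with Ret, Hand2 and Stmn2 in wild-type right lungs.

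The left lungs gave a like order, with smaller values for Calcb, Stmn2, Hand2 and Phox2a in wild type. In knockout left lungs the means ran from Dcx (8.35 CPM per kilobase) through Ret (1.74), Elavl4 (1.11), Hand2 (0.742), Stmn2 (0.719), Calcb (0.509) and Phox2a (0.301) to Insm1 (0.125). In wild-type left lungs they ran from Dcx (7.89) through Ret (2.79), Calcb (1.99), Hand2 (1.84), Stmn2 (1.60), Elavl4 (1.55) and Phox2a (0.963) to Insm1 (0.540). From Ret downwards, each overlapped with the next in mean ± SD in wild-type left lungs, where Ret and Hand2 had wide spreads (SD 0.926 and 0.732). In knockout left lungs Hand2 overlapped with Elavl4 and with Stmn2, and the other neighbours did not overlap.

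Other genes were counted in lists around the roles of the 8. The lists, like the 8, were chosen with earlier results of these data known. The count table, which holds only some chromosomes, lacked many of the listed genes. Of 17 listed autonomic transcription factors, 11 had a row and 10 had enough counts in the summed libraries. Of the 10, 6 were called lower and none higher, and the list median was -1.58 on the log2 scale against 0.00 over all genes. Phox2a, Hand2 and Insm1 were among the 6. Of the 7 tested genes outside the 8, 3 were called lower, with a median of -1.33. The homeobox gene Hmx3, with at most 12 counts in a library, fell by 2.13 (SE 0.40, edgeR adjusted p = 0.0412). With 1 pair left out in turn, the Hmx3 call was lost in all 6 fits (adjusted p = 0.0773 to 0.167). Gata2 (-0.15), Gata3 (0.09) and Eya1 (-0.24), which are also used in other lung or blood cells, were not called (adjusted p = 0.574, 0.917 and 0.467), and Tlx2, a homeobox gene of enteric neurons, passed in right lungs (-2.82, adjusted p = 0.0270) but not with sides summed (-2.06, adjusted p = 0.0701).

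Of 28 genes on the transmitter list, 15 had a row and 12 were tested. Calcb alone was called, and the list median was -0.44, or -0.41 without Calcb. After Calca the smallest p was that of Dbh, the enzyme that makes noradrenaline, at -1.31 (SE 0.38, adjusted p = 0.166). Dbh averaged 0.483 ± 0.191 CPM in knockout left, 0.582 ± 0.449 in knockout right, 0.913 ± 0.561 in wild-type left lungs and 1.73 ± 0.844 in wild-type right lungs. Th, the first enzyme of the same pathway, had at most 10 counts in a library and stood at -0.76 with sides summed (SE 0.42, adjusted p = 0.488). The neuropeptide gene Vip, with at most 1 count, was not tested.

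Of 23 listed genes of RET and neurotrophic factor signalling, 13 had a row and were tested. Gdnf, Gfra1 and Ednrb had no row. Sema3a alone was called, and the list median was -0.06, or -0.05 without Ret. Sema3a, which encodes a secreted axon repellent, averaged 223 ± 15.1 CPM in knockout left, 225 ± 2.67 in knockout right, 294 ± 8.36 in wild-type left lungs and 267 ± 15.2 in wild-type right lungs. It fell by 0.33 (SE 0.05, edgeR adjusted p = 0.0180). The call was lost without the knockout pair 3 (0.0557) or the wild-type pairs 1 (0.0704) or 2 (0.0871). The neurotrophin genes Bdnf and Ntf3 stood at -0.03 and -0.06 and were not called (adjusted p = 0.957 and 0.931).

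Of 26 tested genes of the neuronal cytoskeleton, RNA binding and the synapse, 3 were called lower and 1 higher, and the list median was -0.20. The genes called lower besides Stmn2 were Nap1l5 and Celf3. Nap1l5, which encodes a nucleosome assembly protein-like factor, averaged 4.66 ± 1.49 CPM in knockout left, 5.57 ± 1.20 in knockout right, 14.7 ± 2.28 in wild-type left lungs and 14.3 ± 1.27 in wild-type right lungs, and fell by 1.504 (SE 0.17, edgeR adjusted p = 0.00672). Celf3, which encodes an RNA-binding protein of neurons, averaged 1.45 ± 0.520, 1.48 ± 0.237, 3.34 ± 1.27 and 5.53 ± 1.08 CPM in the groups in the same order and fell by 1.59 (SE 0.23, adjusted p = 0.0180); the call was lost without the knockout pair 3 (0.0864) or the wild-type pair 2 (0.0610).

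Mab21l1 was higher in knockout lungs (1.11, SE 0.20, adjusted p = 0.0372), at 3.90 ± 0.855 CPM in knockout left and 4.84 ± 1.41 CPM in knockout right lungs against 1.99 ± 0.510 CPM in wild-type left lungs and 2.05 ± 0.448 CPM in wild-type right lungs. This call held in 1 of 6 fits with a pair left out, the one without the knockout pair 2 (0.0128 to 0.158 over the 6), and limma-voom did not make it. Nsg1 (0.02), Uchl1 (0.09) and Map2 (0.17), list members with many counts in whole lung, were not called (edgeR adjusted p = 0.924, 0.822 and 0.529). Crmp1, at 25.5 to 37.5 CPM on average in the 4 groups, was called lower in right lungs (-0.56, SE 0.10, edgeR adjusted p = 0.0148). With sides summed Crmp1 stood at -0.33 and was called by DESeq2 but not by edgeR (adjusted p = 0.0705). Dcx was not called between genotypes.

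Of 15 tested genes of pulmonary neuroendocrine cells, 3 were called lower, Calcb and Insm1 among them, and the list median was -0.42. The members of the list differed widely in level. Neurod1 had no count in any of the 12 libraries, Scg2 at most 1, Resp18 at most 3 and Chgb at most 9. Syp and Pcsk1n reached 40 and 37 counts; neither was called with sides summed (-0.42 and -0.91, adjusted p = 0.436 and 0.198), while Pcsk1n fell by 1.63 in right lungs (SE 0.36, edgeR adjusted p = 0.0379). Cpe, which encodes carboxypeptidase E and is also used in other cells, averaged 70.7 to 78.4 CPM in the 4 groups, with a summed difference of -0.06 (adjusted p = 0.848).

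**Figure D3:**
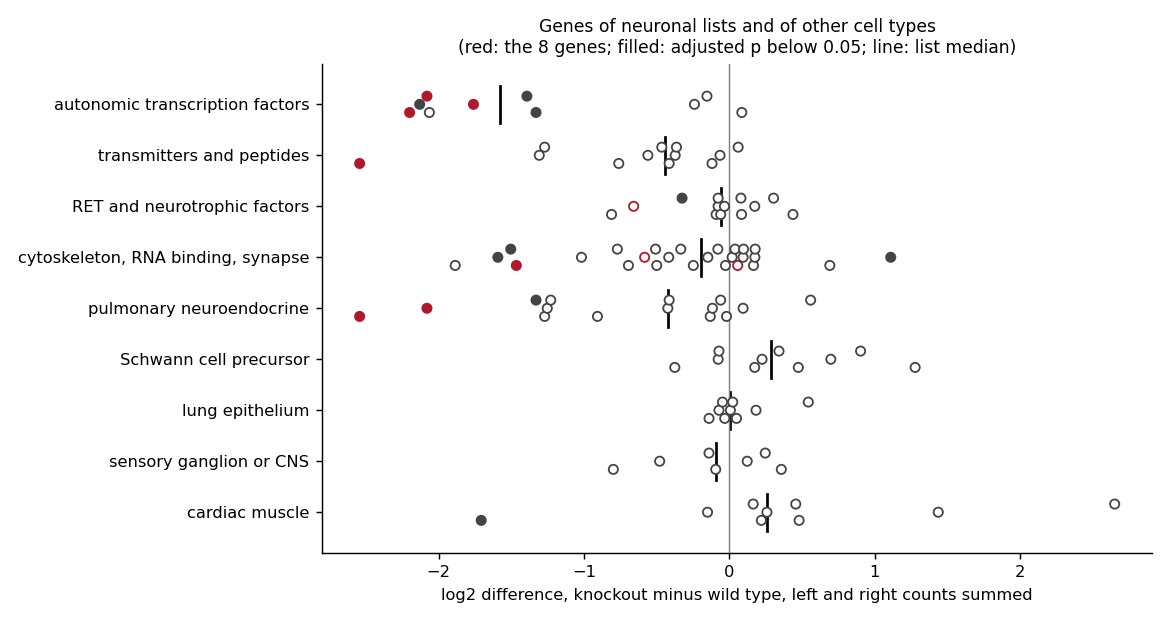
Log2 difference, knockout minus wild type with left and right counts summed, of every tested gene on 9 lists (rows), with the 8 genes in red, filled circles for an adjusted p below 0.05 and a vertical line at each list median. The autonomic transcription factors have the lowest median, at -1.58 (-1.33 without Phox2a, Hand2 and Insm1), and the medians of the 4 marker lists lie between -0.09 and 0.28.

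Markers of other cell types that the dissected tissue could hold were read beside these results, and their part in them was not tested. Of 15 listed markers of Schwann cell precursors, cells of the same neural crest origin, 10 had a row and were tested, and Sox10 had no row. None of the 10 was called by edgeR, DESeq2 or limma-voom, and their median was 0.28. In edgeR 2 had an unadjusted p under 0.05 (among them Tfap2b at 1.28, adjusted p = 0.347). Their summed level was 171 to 200 CPM in knockout and 171 to 206 CPM in wild-type libraries. Most of that sum was Erbb3, at 116 to 128 CPM on average in the 4 groups, and Sox2, at 33.0 to 43.5 CPM. Sox2 is also on the epithelial list. The sum thus says little of the other markers. Of the 10 markers, 3 had negative differences with sides summed, Erbb3 and Sox2 among them. Of 21 listed epithelial markers 9 had a row and were tested, and Nkx2-1, Cdh1 and Epcam had no row. Of the 9 the 3 tools again called none, with 1 at an unadjusted p under 0.05 (Elf3 at 0.54, adjusted p = 0.203) and a median of 0.01. The epithelial sum was 691 to 830 CPM in knockout and 720 to 806 CPM in wild-type libraries. Of 22 listed markers of sensory ganglia or the central nervous system, 16 had a row and 7 were tested. None of the 7 was called by the 3 tools or had an unadjusted p under 0.05 (smallest for Dlx2, at -0.80, adjusted p = 0.399), with a median of -0.09. The sum of all 16, tested or not, was 23.5 to 32.3 CPM in knockout and 24.8 to 29.0 CPM in wild-type libraries, and Neurod6 was at 0 throughout.

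Of 18 listed cardiac muscle markers, 11 had a row and 9 were tested. Among the 9, Actc1, an actin also present in other muscle, fell by 1.71 (SE 0.22, edgeR adjusted p = 0.0113), and 7 of the 9 had positive differences. The Actc1 call was lost without the knockout pair 3 (0.0521) or the wild-type pair 2 (0.0577). The summed level of the 10 cardiac genes with a row other than Actc1, tested or not, was 40.0 to 69.9 CPM in knockout and 36.2 to 48.7 CPM in wild-type libraries. Myl2, a ventricular myosin light chain, stood at 2.65 (SE 0.69, adjusted p = 0.124) and was called higher by DESeq2.

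Left and right lungs were then compared within each genotype. Libraries of one genotype that carry the same number deviated together from their group means, so each left library was also set against the right library of its number (the check is given with the processing). In the fit without pairs, no member was called between sides in either genotype, where 0% of all genes were called in knockout and 0.0105% in wild-type lungs; DESeq2 and limma-voom called none of the 8 either. At an unadjusted p under 0.05 there were 1 of the 8 in knockout lungs (Dcx) and 4 in wild-type lungs (Phox2a, Stmn2, Dcx and Calcb), against 358 and 249 of all 9519 genes.

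In the paired fit, Dcx was lower in left than in right lungs of both genotypes. Its log2 difference was -0.27 in knockout lungs (SE 0.06, edgeR adjusted p = 0.0494) and -0.30 in wild-type lungs (SE 0.06, adjusted p = 0.0142), and the left library was lower in 3 of 3 pairs of each genotype. The left libraries of Dcx were all below the right ones in both genotypes, which held for 4.21% of all tested genes in knockout and 4.24% in wild-type lungs. Stmn2 was called too in wild-type lungs, at -0.66 (SE 0.14, adjusted p = 0.0225), with 3 of 3 pairs lower on the left. Paired calls of a lower left level were made for 0.189% of all genes in knockout and 0.389% in wild-type lungs.

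These paired calls were not firm. In knockout lungs Dcx was called in none of the 3 fits that left out a pair (adjusted p = 0.0870 without pair 1, 0.428 without pair 2 and 0.187 without pair 3). In wild-type lungs Dcx was called without pair 3 (0.00709) but not without pairs 1 (0.103) or 2 (0.437), and Stmn2 without pair 1 (0.00840) but not without pairs 2 (0.534) or 3 (0.142). In limma-voom, with a random effect for the pairs, none of the 8 was called.

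**Figure D4:**
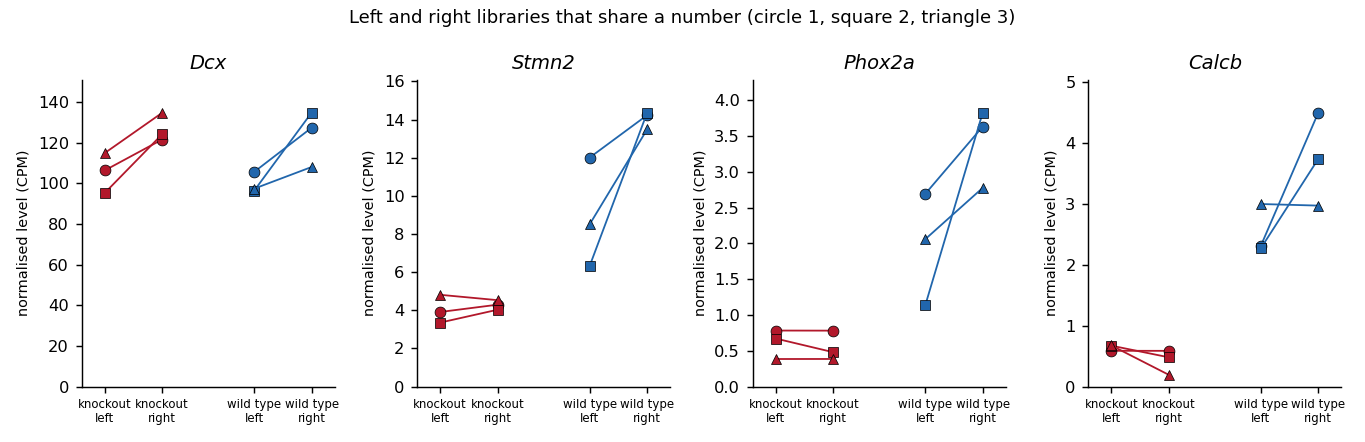
Level in CPM (vertical axes start at 0) of Dcx, Stmn2, Phox2a and Calcb in left and right lungs of knockout (red) and wild-type (blue) embryos, with a line joining the left and right library of each number. Dcx is lower on the left in 3 of 3 pairs of both genotypes, and Stmn2 and Phox2a are lower on the left in 3 of 3 wild-type pairs.

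In wild-type lungs Phox2a was at -0.80 (SE 0.31) and lower on the left in 3 of 3 pairs, Calcb at -0.56 (SE 0.25) and lower in 2 of 3, and Hand2 at -0.47 (SE 0.32) and lower in 2 of 3. In knockout lungs the same genes were at 0.16 (SE 0.49), 0.61 (SE 0.43) and 0.43 (SE 0.43), and Calcb had 6, 7 and 7 counts in left libraries 1 to 3 against 6, 5 and 2 in the right ones. After library scaling the left levels of Calcb all lay above the right ones, which held for 3.97% of all genes, but pair 1, with 6 counts on each side, was separated by scaling alone. None of these 6 differences passed the test. The other 3 genes had differences between sides from -0.40 to 0.12 with no call, for Insm1 -0.40 in knockout and -0.38 in wild-type lungs, for Ret 0.07 and 0.12, and for Elavl4 0.07 and -0.12.

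Whether the knockout difference itself was unlike between sides was tested as an interaction, the left difference minus the right one. It was 1.17 for Calcb (SE 0.50), 0.95 for Phox2a (SE 0.58), 0.90 for Hand2 (SE 0.54) and 0.56 for Stmn2 (SE 0.30), all positive because the right difference was the more negative. Elavl4 stood at 0.19, Dcx at 0.04, Insm1 at -0.03 and Ret at -0.05. No member was called by edgeR, DESeq2 or limma-voom, and 0% of all genes were. Calcb alone of the 8 had an unadjusted p under 0.05, and 124 of all 9519 genes did. With pairs as a block 0.021% of all genes were called and none of the 8. A larger loss in right than in left lungs was thus not shown for any of them.

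Genes elsewhere in the table with a like pattern were ranked by Pearson's r of log2 CPM over the 12 libraries. The genotype difference enters every such r and the left and right libraries of a number go together, so r is a description. For the mean of the 8 standardised genes, the highest were Celf3 (r = 0.969), Fam20c (0.966), Hmcn2 (0.960), Bmp7 (0.955) and Cxcl12 (0.949). For single genes the highest were Gm5148 for Phox2a (0.957), Hmcn2 for Hand2 (0.982), Agfg1 for Insm1 (0.969), Plcl1 for Ret (0.936), Fam20c for Stmn2 (0.974), Btbd11 for Elavl4 (0.982), Ppp1r12a for Dcx (0.874) and Synpo2 for Calcb (0.958). Of these, Hmcn2 averaged 1.21 CPM in knockout and 5.10 CPM in wild-type libraries, and Synpo2, an actin-binding protein gene, 24.7 and 101 CPM in the same order.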

How the data were processed

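Total RNA of 12 embryonic lung samples was sequenced, per the labels. The deposited table holds raw, unnormalised read counts: per the submitters' processing notes, the authors used FastQC, HISAT2, the GRCm38 build and featureCounts. The sources used here give no versions, no strand setting and no treatment of reads that fit several genes. As used here, the table ends within a row on chromosome 8 (1 incomplete row left out), so the totals of 10290103 to 10753386 counts are part of each library's depth, and genes on other chromosomes were not analysed here. Gene IDs were matched to symbols for 99.5% of rows, and 98.8% of rows have the coordinates of GENCODE vM21. Exon length is the deposited length column.

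Genes were filtered with filterByExpr (minimum count 10, minimum total 15, a level of 0.962 CPM in a group of 3), libraries scaled by TMM (factors 0.992 to 1.01) and groups compared by glmQLFit and glmQLFTest of edgeR 4.0.16 in R 4.3.3, with Benjamini-Hochberg adjustment over all tested genes and a threshold of 0.05. Left, right, side and interaction comparisons used 1 fit of 12 libraries and 4 groups (8 residual degrees of freedom, 9519 genes); the comparison over both sides used counts summed by number within a genotype (10203 genes). DESeq2 1.42.0 and limma-voom (limma 3.58.1) were alternatives, and the fits were tested on simulated counts. Counts of replicates differed by more than sampling noise (4.72 to 14.1 chi-square per degree of freedom), so none was a duplicate.

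Whether the numbers in the labels pair the samples was checked first. Deviations from the group means of same-numbered left and right libraries of a genotype correlated at 0.253 to 0.486 in all 6 pairs, against -0.393 to -0.00284 for other numbers. Deviations within a group sum to 0, so positive values for the same number push those for other numbers below 0. The negative range is thus no separate sign of pairing. Across genotypes, same-numbered libraries correlated at -0.121 to -0.0416. Left and right were therefore taken as paired within a genotype; the data hint at this and the labels do not state it.

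The 8 genes and the lists were chosen with earlier results of these data known. Genes named besides the 8 are up to 4 called in each list with sides summed, or the 2 with the smallest p, up to 2 from each marker list, the genes of most like pattern, overlapping genes and paralogs, and Intu, Gli1 and Xist as checks; a few genes under this rule are left out. Alb, Foxa2, Myl2, Tlx2, Gata2, Gata3, Eya1, Bdnf, Ntf3, Nsg1, Uchl1, Map2, Crmp1, Th, Vip, Cpe, Syp, Pcsk1n, Erbb3, Sox2 and the neuroendocrine genes at or near 0 were chosen after their values were seen. Promoter windows are from RefSeq (GRCm38.p6).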

Additional observations from a re-analysis of the deposited data

How the results depend on the processing

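The direction and calls were recomputed under other scalings, filters, tools and pairings and with each library or pair left out. The number of the 8 genes called lower in left lungs was 3, where 112 of all 9519 genes were called in either direction. It was 6 with no filter on low counts (510 of 18772 genes) and 1 in a fit of just those 2 groups (49 of 9174). With a library left out it was 1 to 4 (45 to 85 genes in all). It was 1 without the knockout left library 1 (81 genes) or 2 (78) or the wild-type left library 1 (45). In right lungs it was 5 (144 genes in all), and 3 to 5 with a library left out (68 to 124 genes in all). It was 3 without the knockout right library 3 (68 genes). With sides summed it was 5, and 2 to 5 with a pair left out (2 without the knockout pair 3 or the wild-type pair 2, 3 without the wild-type pair 1). Over all genes tested, the summed comparison called 141 genes, against 304 with DESeq2, 204 with no filter, 543 in a fit of 12 libraries without pairs, 344 with the pair as a random effect, and 29 or 65 without those pairs; of the 8, these fits called 6, 5, 7 and 6 and the numbers above.

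Same-numbered libraries of the 2 genotypes share only a number. With that number as a replicate block across genotypes, and just the 2 groups compared in the fit, 0 of the 8 were called in left lungs (24 genes in all) and 4 in right lungs (74), against 1 (49 genes) and 4 (107) in the same 2-group fits without it. With sides summed the block gave 3 (48 genes in all). Between sides, the replicate block within a genotype gave 1 call of a lower left level in knockout and 2 in wild-type lungs, against 0 without it. These block fits called 43 and 63 of all genes in either direction. With no filter 1 of the 8 was called in wild type (46 genes in all). The block fits without 1 wild-type pair called 0 to 1 (25 to 41 genes in all).

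Signs turned for differences that none of the fits called. The interaction was -0.03 for Insm1 and -0.05 for Ret, but 0.0688 and 0.00043 with limma-voom (0.0687 and 0.0012 with the pair as a random effect). With a library left out it ran from -0.43 to 0.39 for Insm1, -0.29 to 0.17 for Ret and -0.030 to 0.13 for Dcx. The Dcx difference between genotypes in right lungs ran from -0.047 to 0.11. Between sides of knockout lungs, the differences ran from -0.048 to 0.49 for Phox2a, -0.24 to 0.024 for Stmn2, -0.042 to 0.16 for Ret, -0.81 to 0.0067 for Insm1 and -0.011 to 0.19 for Elavl4. Between sides of wild-type lungs they ran from -0.11 to 0.36 for Ret and -0.26 to 0.0076 for Elavl4. In block fits without 1 pair they reached -0.021 for Elavl4, 0.014 for Insm1, -0.043 for Ret and -0.0014 for Phox2a in knockout and -0.044 for Ret in wild-type lungs. The cause of these changes was not tested. Depth limits Phox2a, Insm1 and Calcb most, with 2 to 8 counts per knockout library.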
